A study of Mus musculus with 14 samples.

Results

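Transcription factor genes that set or keep intestinal identity were followed through the series, 9 in all: Cdx1, Cdx2, Hnf4a, Hnf4g, Gata4, Gata6, Foxa1, Foxa2 and Isx. They were taken as a named list and not by any measured value, and 9 of 9 were found in both data types. They stand among 17418 genes tested in the bulk libraries and 20707 genes of the single-cell matrices.

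The data come from mouse intestinal organoids, which are cultured epithelium that renews from stem cells, kept in the growth-factor medium named ENR. Isx-9 is a small molecule used to drive neuronal and endocrine differentiation, and it shares nothing but a name with the gene Isx. For bulk RNA-seq, organoids with an Lgr5-EGFP knock-in received 25 µM Isx-9 (2 libraries) or 0.05% DMSO, the solvent (2 libraries), for 6 hours before their stem cells were sorted. For single-cell RNA-seq there was 1 library each of untreated wild-type organoids, untreated Chgb-mCherry knock-in reporter organoids, reporter organoids after 6 days of 0.05% DMSO, and reporter organoids after 6 days of 25 µM Isx-9. Treatments started 2 days after passaging, and the control and treated organoids of each pair carry the same knock-in. The labels give no animal or organoid line behind a library, so the p-values below rest on a spread between libraries that may be technical.

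The listed genes form a layered network. The caudal-type homeodomain factors Cdx1 and Cdx2 set intestinal against gastric fate and act with the nuclear receptors Hnf4a and Hnf4g, which sustain enterocyte genes. The zinc-finger factors Gata4 and Gata6 set the character of the proximal gut and of crypt cells, the forkhead factors Foxa1 and Foxa2 act in secretory and enteroendocrine lineages, and Isx is an intestine-restricted homeodomain factor that represses genes of carotenoid uptake and cleavage.

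The genes lie apart in the genome (RefSeq annotation, GRCm38.p6), with no pair of paralogs side by side. The CDX genes are Cdx1 (ENSMUSG00000024619) at chr18:61018862-61036199 and Cdx2 (ENSMUSG00000029646) at chr5:147300900-147307249. The HNF4 genes are Hnf4a (ENSMUSG00000017950) at chr2:163506811-163572907 and Hnf4g (ENSMUSG00000017688) at chr3:3508030-3659800. The GATA genes are Gata4 (ENSMUSG00000021944) at chr14:63198914-63271712 and Gata6 (ENSMUSG00000005836) at chr18:11052510-11085636. The forkhead genes are Foxa1 (ENSMUSG00000035451) at chr12:57540628-57548029 and Foxa2 (ENSMUSG00000037025) at chr2:148042877-148046969. Isx itself (ENSMUSG00000031621) is at chr8:74873174-74893506.

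The bulk libraries held 18909542 to 19487264 counts. After filtering, the single-cell libraries held 8745, 9610, 8968 and 9196 cells (wild type, reporter, DMSO, Isx-9) with a median of 8893 to 15007 UMIs, and each pair of libraries shared 32 to 52 cell barcodes. The stem cell marker Lgr5 stood at 312 to 378 CPM (counts of a gene scaled to a fixed library total) in the bulk libraries. The wild-type library stands apart. Xist, the RNA of the inactive X chromosome, had a UMI in 45.9% of its cells, and 39.9% of its cells had a UMI of a Y-linked gene (4 genes were used) and none of Xist. In the reporter libraries Xist had a UMI in 0.223 to 0.457% of cells, and Y-linked UMIs without Xist stood in 68.3 to 71.3%. The comparison of the reporter with the wild type is therefore also given without clusters 0 and 1 and within cells with Y-linked UMIs. In the wild-type library, clusters 0 and 1 held more Xist UMIs than any other cluster (12821 and 16163), at 506 and 906 CPM. The other wild-type clusters had Xist at 97.3 (cluster 16) to 649 CPM (cluster 15). Leaving out clusters 0 and 1 therefore does not remove all cells with Xist.

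RefSeq promoter windows (GRCm38.p6, the 250 bases before a transcription start) were matched for 5 of the 9 members, with 2 windows for Hnf4a and 3 for Foxa2. The 4 windows printed here are shown because 2 belong to genes lower at both times (Isx, Hnf4a), 1 to a gene that did not pass the test at 6 hours (Cdx2), and 1 to a gene higher at 6 days (Foxa2). Capitals mark matches on either strand. The letters searched for CDX factors were TTTATNG. A half-site of the HNF4 receptors was searched as CAAAG. For GATA factors the search used AGATAA, and for forkhead factors of the FOXA kind it used TGTTTNC. Bases inside the annotated gene are left out.
Isx, chr8:74872924-74873173, plus strand: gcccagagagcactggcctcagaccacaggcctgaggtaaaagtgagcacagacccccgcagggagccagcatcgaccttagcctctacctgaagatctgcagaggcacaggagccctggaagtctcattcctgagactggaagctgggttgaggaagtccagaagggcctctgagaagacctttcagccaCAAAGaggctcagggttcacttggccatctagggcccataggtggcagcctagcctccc
Hnf4a, chr2:163506607-163506810, plus strand: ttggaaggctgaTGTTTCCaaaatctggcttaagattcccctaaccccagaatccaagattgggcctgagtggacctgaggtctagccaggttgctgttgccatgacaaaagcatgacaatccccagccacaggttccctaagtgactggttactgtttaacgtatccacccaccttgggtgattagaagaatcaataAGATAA
Cdx2, chr5:147307250-147307499, minus strand: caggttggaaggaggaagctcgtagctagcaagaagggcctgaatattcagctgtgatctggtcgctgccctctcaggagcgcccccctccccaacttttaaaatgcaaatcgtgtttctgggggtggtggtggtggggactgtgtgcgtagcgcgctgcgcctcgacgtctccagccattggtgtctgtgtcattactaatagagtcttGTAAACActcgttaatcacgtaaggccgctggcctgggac
Foxa2, chr2:148046970-148047219, minus strand: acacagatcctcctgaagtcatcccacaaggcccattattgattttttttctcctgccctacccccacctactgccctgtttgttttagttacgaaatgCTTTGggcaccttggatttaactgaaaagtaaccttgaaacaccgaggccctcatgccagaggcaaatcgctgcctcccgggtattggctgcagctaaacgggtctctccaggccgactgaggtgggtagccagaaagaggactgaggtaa
The Isx window held 1 HNF4 half-site, which is in 48.6% of the 32851 mouse promoter windows of this length. The upstream Hnf4a window held 1 GATA match, present in 9.99% of all windows, and 1 FOXA match, present in 17.8%. The Cdx2 window held 1 FOXA match, 40 bases before the start, and the printed Foxa2 window 1 HNF4 half-site. Among the windows not printed, that of Foxa1 held 4 HNF4 half-sites and 1 FOXA match. Another window of Foxa2 held 1 HNF4 half-site and 1 GATA match. No CDX match, present in 9.81% of all windows, was in any window of the 5 members. A match is a string of letters and no evidence of binding.

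After 6 hours of Isx-9 the sorted stem cells had less Isx, Cdx1, Gata6, Hnf4a and Gata4 RNA than the DMSO libraries. Of the 9 members 5 fell and 0 rose (edgeR quasi-likelihood test, adjusted p under 0.05), while 20.03% of all 17418 genes tested fell and 27.3% rose. Level matters to this background. Of the 2520 tested genes above 100 CPM in DMSO, where all members but Hnf4g and Foxa2 lie, 58.4% fell and 4.13% rose. Their median log2 change was -0.26, beside -0.27 for the 9 members. Among genes between 20 and 100 CPM, where Hnf4g and Foxa2 lie, 31.0% fell and 14.9% rose. In sorted bulk cells, fewer cells of a type and less RNA per cell cannot be told apart. Levels below are CPM on effective (TMM-scaled) library sizes.

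Isx moved most. It stood at 111.1 and 111.2 CPM in the DMSO libraries and at 37.3 and 36.9 CPM with Isx-9. The groups did not overlap, which was also true of 34.8% of all genes in this direction. The log2 fold change was -1.58 ± 0.09 (SE, n = 2 against 2, edgeR adjusted p = 2.5e-07). Both genes listed as repressed by Isx rose. Bco1, the enzyme that cleaves beta-carotene, went from 1.72 and 2.09 CPM to 18.3 and 13.6 CPM (log2 change 3.06 ± 0.27, edgeR adjusted p = 6.7e-06). Scarb1, a lipid and carotenoid receptor, went from 44.8 and 38.4 CPM to 50.7 and 53.9 CPM (log2 change 0.33 ± 0.11, edgeR adjusted p = 0.030).

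In the CDX, HNF4 and GATA pairs the paralogs' estimates differed. Cdx1 stood at 149.0 and 155.7 CPM in DMSO and at 89.8 and 102.2 CPM with Isx-9 (log2 change -0.67 ± 0.09, edgeR adjusted p = 1.1e-04), and the groups did not overlap. Its paralog Cdx2 stood at 137.8 and 148.0 CPM in DMSO and at 132.3 and 154.5 CPM with Isx-9, so the groups overlapped (log2 change 0.00 ± 0.09, edgeR adjusted p = 0.97). Taken within a library, the count ratio of Cdx1 to Cdx2 was 1.08 and 1.05 in DMSO and 0.679 and 0.662 with Isx-9. With 2 libraries a group an exact permutation test of such a ratio cannot go below p = 0.333 (two-sided), which is the value for this pair.

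Hnf4a and Hnf4g, a pair of nuclear receptors with shared target sites, split in the same way. Hnf4a stood at 1155 and 1173 CPM in DMSO and at 800 and 866 CPM with Isx-9 (log2 change -0.48 ± 0.07, edgeR adjusted p = 3.1e-04). Hnf4g stood at 30.1 and 41.3 CPM in DMSO and at 40.4 and 45.1 CPM with Isx-9, with overlapping groups (log2 change 0.26 ± 0.15, edgeR adjusted p = 0.18). Without DMSO replicate 2, the higher of the DMSO values, Hnf4g passed the test upward (log2 change 0.49, edgeR adjusted p = 0.016). The count ratio of Hnf4a to Hnf4g was 38.3 and 28.4 in DMSO and 19.8 and 19.2 with Isx-9, with exact permutation p = 0.333, the smallest possible.

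Of the GATA factors, Gata6 stood at 142.7 and 138.9 CPM in DMSO and at 85.4 and 96.1 CPM with Isx-9 (log2 change -0.63 ± 0.09, edgeR adjusted p = 1.4e-04). Gata4 stood at 175.8 and 184.3 CPM in DMSO and at 137.9 and 160.4 CPM with Isx-9 (log2 change -0.27 ± 0.09, edgeR adjusted p = 0.025). Neither gene's groups overlapped, nor did the count ratio of Gata6 to Gata4 (0.812 and 0.754 in DMSO, 0.620 and 0.599 with Isx-9). The Gata4 call was lost with library size alone (log2 change -0.15, edgeR adjusted p = 0.18), without a low-count filter (adjusted p = 0.078), without DMSO replicate 2 (adjusted p = 0.091) and without Isx-9 replicate 1 (log2 change -0.16, adjusted p = 0.27).

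The forkhead factors gave no call, and the count ratio of Foxa1 to Foxa2 overlapped between the groups. Foxa1 stood at 109.8 and 119.1 CPM in DMSO and at 122.4 and 129.5 CPM with Isx-9 (log2 change 0.14 ± 0.08, edgeR adjusted p = 0.19). Foxa2 stood at 24.7 and 30.6 CPM in DMSO and at 31.2 and 32.9 CPM with Isx-9 (log2 change 0.21 ± 0.14, edgeR adjusted p = 0.23). The Isx-9 libraries were above the DMSO libraries for both genes, as they were for 38.9% of all genes. Scaling by library size alone moved the median log2 change of all genes from 0.02 to 0.14 and the calls from 4755 higher and 3488 lower to 5475 higher and 2095 lower. Foxa1 (0.26, edgeR adjusted p = 0.019) and Hnf4g (0.38, edgeR adjusted p = 0.049) then passed upward. On this scale Cdx1, Hnf4a, Gata6 and Isx were still lower by the same test.

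**Figure D1:**
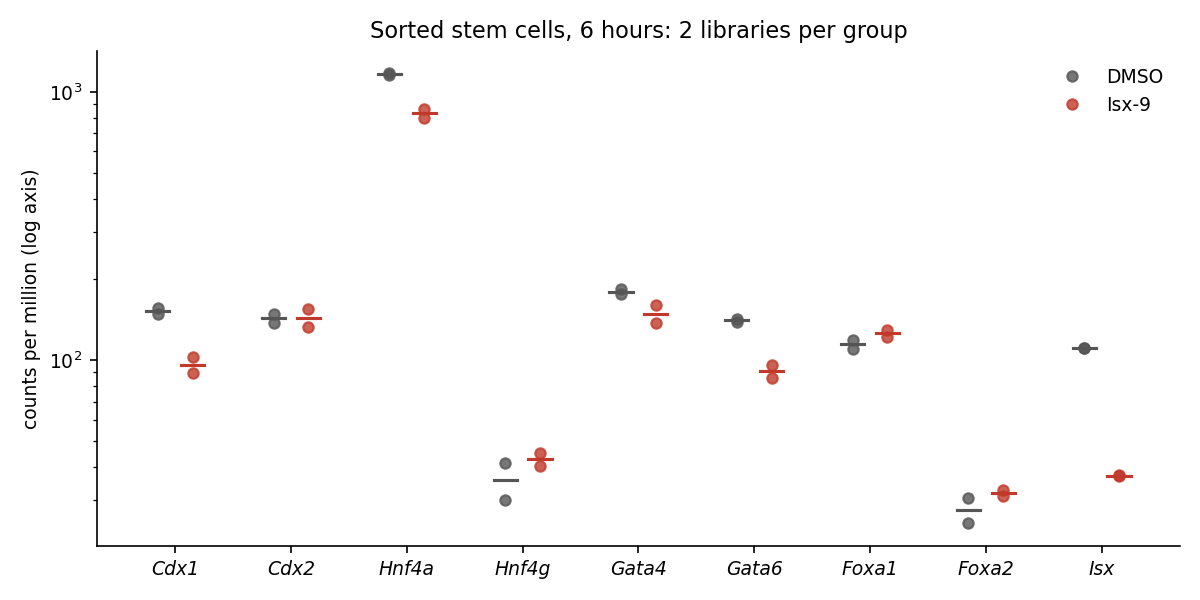
CPM of the 9 members (log axis) in each bulk library after 6 hours; dots are libraries, bars are means of 2, grey is DMSO and red is Isx-9. The red and grey dots stand apart for Isx, Cdx1, Gata6, Hnf4a and Gata4 downward, and they interleave for Cdx2 and Hnf4g.

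The rest of the network was read from lists of genes named for their role. Of 21 tested transcription factors that act beside the members in the gut, 7 fell and 4 rose, with a median log2 change of -0.18. Vdr, the vitamin D receptor, fell from 409 and 437 CPM to 245 and 283 CPM (log2 change -0.68, edgeR adjusted p = 8.0e-05). Ehf, an epithelial ETS factor, fell by 0.61 on the log2 scale (edgeR adjusted p = 6.5e-05). Among those that rose was Nr1h4, the bile acid receptor FXR (6.32 to 10.9 CPM on average).

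Of 11 genes listed as CDX targets, 4 fell and 1 rose, with a median of -0.46. Besides Isx itself, Gucy2c, the guanylin receptor, fell by 0.63 and Cdh17, an intestinal cadherin, fell by 0.48, both on the log2 scale, and Mep1a, a brush border protease, rose by 1.40 (edgeR adjusted p = 5.1e-05, 5.9e-04 and 2.0e-05). Of 11 tested genes listed as HNF4 targets, 0 fell and 3 rose, a share equal to the 27.3% of all tested genes that rose. These were Apob, the chylomicron apolipoprotein (253 to 478 CPM on average), Alpi, the brush border alkaline phosphatase (22.2 to 39.5 CPM), and Dgat2, a triglyceride-synthesis enzyme (20.9 to 32.4 CPM). At the DMSO levels of these 3 genes fewer rose. The share was 4.13% of genes above 100 CPM and 14.9% of genes between 20 and 100 CPM.

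Of 11 proximal genes 2 rose and 1 fell, Slc40a1 (7.82 to 18.0 CPM) and Cybrd1 (14.9 to 30.3 CPM), both of iron transport, being the risers above 5 CPM. Of 7 tested distal genes 3 rose and 0 fell, and of 7 tested gastric genes 3 rose and 0 fell, among them Atp4a, the proton pump subunit (3.19 to 14.7 CPM). Beside the 27.3% of all tested genes that rose, such counts in lists of 7 say little. Other markers moved in the same libraries. All 6 tested mesenchymal markers rose, with a summed level of 6.24 to 7.38 CPM in DMSO and 42.6 to 62.7 CPM with Isx-9, of which Vim made 3.71 and 5.12 CPM in DMSO and 31.0 and 20.4 CPM with Isx-9. The defining genes Dcn and Col3a1 were at 0 to 0.30 CPM. Of 9 tested tuft cell markers 5 rose (summed level 18.8 and 21.6 CPM in DMSO, 59.8 and 51.9 CPM with Isx-9). Of the endothelial and glial markers 4 of 6 rose, and 4 of 6 injury markers rose, beside 27.3% of all tested genes. Markers near 0 in DMSO passed the low-count filter only through the Isx-9 libraries and could only rise, so these counts are no support. The same holds for distal and gastric genes near 0 in DMSO. Of 12 cycling markers 5 fell, and of 10 stem cell markers 7 fell and 1 rose. Their part in the members' changes was not tested.

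At 6 days the comparison rests on 1 library each, so there is no test, and a member is counted as higher or lower at a 1.5-fold ratio of CPM, here UMI CPM (a gene's share of all UMIs summed over cells, on the same scale), whose 95% exact interval leaves out 1. Isx, Cdx1 and Hnf4a were lower with Isx-9, and Foxa1 and Foxa2 were higher. That is 3 lower of 9, beside 9.54% of 14811 genes, and 2 higher of 9, beside 41.6%. The interval covers counting error only.

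Isx stood at 83.7 UMI CPM with DMSO and at 27.4 with Isx-9, which is 3.06-fold lower (ratio 0.327, interval 0.313 to 0.341). The listed Isx-repressed genes were higher again, Bco1 by 5.75-fold (3.91 to 22.5 UMI CPM) and Scarb1 by 2.69-fold (10.2 to 27.3). Cdx1 was 2.23-fold lower (116 to 52.1 UMI CPM), while Cdx2 went from 141 to 116, a ratio of 0.828 (0.808 to 0.848). Hnf4a was 1.78-fold lower (102 to 57.1), and Hnf4g went from 32.7 to 28.9, a ratio of 0.882.

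The UMI ratio of Cdx1 to Cdx2 was 0.726, 0.817 and 0.827 in the 3 libraries without Isx-9 and 0.448 with it. The ratio of Hnf4a to Hnf4g was 3.08 to 3.15 without Isx-9 and 1.98 with it. The ratio of Gata6 to Gata4, which differed at 6 hours, was 2.95 with DMSO and 2.79 with Isx-9. Gata4 (26.5 to 26.4 UMI CPM, ratio 0.996) and Gata6 (78.1 to 73.5, ratio 0.941) stayed within 1.5-fold.

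Foxa1, at 20.4 with DMSO and 38.6 with Isx-9, was 1.90-fold higher, and Foxa2, at 20.8 and 48.9, was 2.35-fold higher. The Foxa1 value fell short of the fold on another scale, and both did in another cell mix. The median log2 ratio of all genes was 0.36, and TMM scaling brought it to -0.03 and the calls from 6154 higher and 1413 lower to 4639 higher and 3094 lower. With TMM, Foxa1 was at 1.45 and Foxa2 at 1.80, Cdx2 was 1.58-fold lower, and Cdx1, Hnf4a and Isx stood 2.91-, 2.32- and 4.00-fold lower. Without the enteroendocrine-like and progenitor-like clusters, Foxa1 was at 1.41 and Foxa2 at 1.31, neither past the fold, and Isx, Cdx1 and Hnf4a were still lower (0.427, 0.504 and 0.553).

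**Figure D2:**
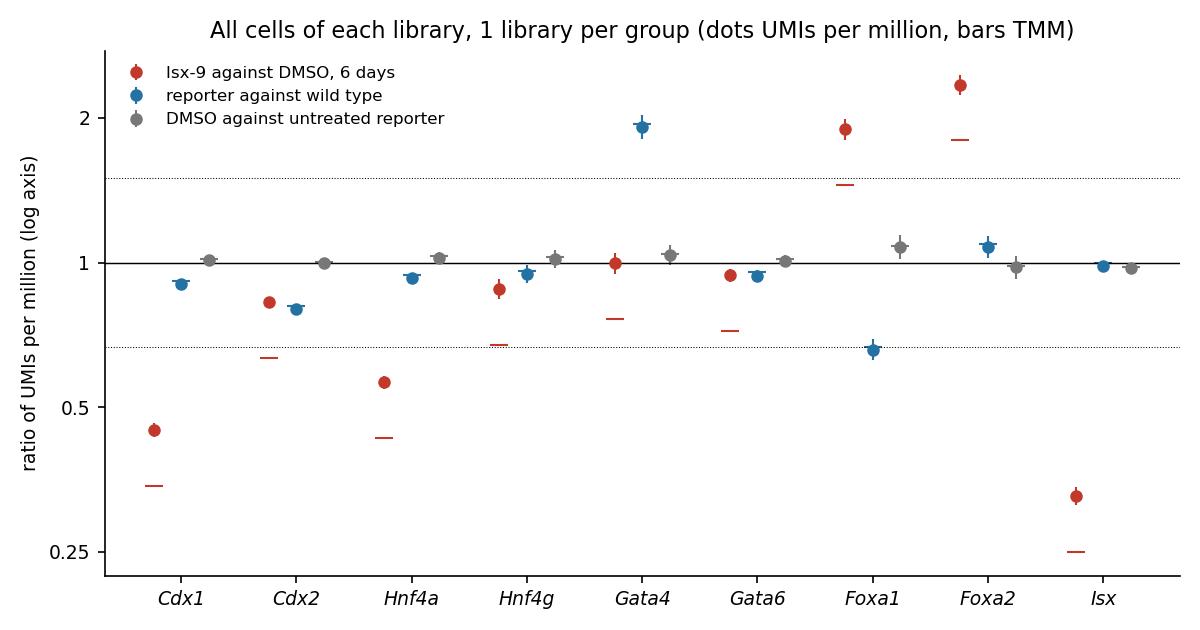
Ratio of UMI CPM (log axis) for each member in 3 single-cell comparisons; dots carry 95% counting intervals, short bars are the same ratio with TMM factors, and dotted lines mark 1.5-fold. Isx, Cdx1 and Hnf4a sit below the lower line with Isx-9 on both scales, and Gata4 sits above the upper line in the reporter against the wild type.

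The handling without Isx-9 gives the scale of library differences. DMSO against the untreated reporter called 0 of 9 members either way, beside 0.556% of genes higher and 0.289% lower, and the 9 ratios ran from 0.973 to 1.08.

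Around the members, genes of the absorptive programme were lower at 6 days. Of 12 genes listed as HNF4 targets, 9 were lower and 1 was higher, with a median log2 ratio of -2.66, beside 0.36 for all genes. Fabp1, a fatty acid binding protein, went from 603 to 0.374 UMI CPM, Apoa1 from 265 to 6.13, Apoa4 from 85.6 to 2.32 and Apoc3 from 61.2 to 2.64, the last 3 being apolipoproteins. Of 10 measured genes listed as CDX targets 5 were lower and 1 was higher. Muc2, the goblet mucin, went from 35.6 to 2.22, Fabp2 from 376 to 52.5, and Mep1a from 7.87 to 26.9 UMI CPM. Beside 41.6% of all genes higher and 9.54% lower, 12 of 14 enterocyte markers were lower and 1 was higher (summed level 2586 to 397). Of 21 enteroendocrine markers 14 were higher and 5 lower (summed level 2615 to 13189). Their part in the members' differences was not tested.

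Regional and gastric genes differed too. Of 9 distal genes 6 were lower and 0 higher, led by the ileal bile acid binder Fabp6 (8.15 to 0.446 UMI CPM), Clec2h (17.7 to 1.40) and Slc51a (7.44 to 0.789). Of 10 measured proximal genes 6 were lower and 2 higher. Of 11 measured gastric genes 9 were higher and 2 lower, beside 41.6% of all genes higher and 9.54% lower. Gastric genes near 0 with DMSO were measured only through their UMIs in the Isx-9 library and could only be higher. Between DMSO and the untreated reporter, 7 gastric genes were measured. The count of higher gastric genes is therefore no support, and the levels of single genes are given as description. Cym, chymosin, had 12 UMIs with DMSO and 49768 with Isx-9, Gif, intrinsic factor, 8 and 2506, and Barx1, a homeobox gene of the embryonic stomach, 0 and 887. Anxa10 went the other way, from 700 UMIs to 0. Of 21 measured neighbouring transcription factors 8 were lower and 4 higher. Creb3l3 was 7.13-fold lower, Ppara 2.74-fold lower and Nr5a2 2.28-fold lower, and Maf was 2.55-fold higher.

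By cell state, the 9 members did not share a pattern. Cells were clustered without the members or the neighbouring factors, and named "X-like" from fixed markers. Over 10 states of the 3 libraries without Isx-9, medians over libraries spanned 2-fold or more for 8 of 9 members (5 of 9 with coarser clusters). The share of all genes with such a span was not computed, so this count does not set the members apart. The tie of a state to its neighbour in rank was often within the spread of the libraries, and for Gata4 all 9 neighbouring pairs overlapped. For each member the highest state stood above the lowest in each of the 3 libraries. Those states were picked from the same 3 libraries, so this order is no separate support. With the coarser clusters the highest state was another for Cdx2, Hnf4a and Foxa1. The lowest was another for Cdx1, Hnf4a, Hnf4g, Foxa1 and Foxa2.

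Foxa2 was the most state-bound. It stood at 56.5 to 75.4 UMI CPM in enteroendocrine-like cells and at 35.1 to 42.7 in goblet-like cells, with no overlap, and at 6.09 to 7.97 in enterocyte-like cells and 2.63 to 4.93 in the cluster led by Fabp6, Lgals3 and Sprr1a. The span of medians was 17.1-fold. Foxa1 had the same high states, goblet-like (39.5 to 54.3) and enteroendocrine-like cells (41.1 to 59.0), which overlapped, and enterocyte-like cells were lowest (8.97 to 12.4), a span of 4.80-fold.

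Isx had another order. It stood at 103 to 107 UMI CPM in enterocyte-like cells and at 91.1 to 101 in stem-like cells, and at 27.95 to 28.6 in enteroendocrine-like and 29.1 to 35.1 in tuft-like cells, with goblet-like cells between (67.5 to 86.5). Among the DMSO enteroendocrine-like cells, the cluster rich in the enterochromaffin gene Tph1 had 46.0 (interval 38.7 to 54.2) and the cluster of peptide hormones 8.60 (5.51 to 12.8). Enterochromaffin cells make serotonin.

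Hnf4g was highest in enterocyte-like cells (64.4 to 69.8) and lowest in Paneth-like cells (14.6 to 19.6), a span of 4.07-fold. Hnf4a varied least, from 138 to 165 in the Fabp6-led cluster to 68.2 to 83.1 in Paneth-like cells, 1.87-fold in medians. The CDX pair differed in order. Cdx1 was highest in tuft-like (141 to 175) and stem-like cells (131 to 150) and lowest in the Fabp6-led cluster (66.1 to 83.8), which overlapped the Paneth-like cells. Cdx2 was highest in that Fabp6-led cluster (179 to 261) and lowest in Paneth-like cells (53.3 to 82.2).

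Gata6 spanned 2.17-fold, from 86.6 to 98.5 in enteroendocrine-like cells to 43.1 to 56.8 in Paneth-like cells. Gata4 had medians from 32.9 in enterocyte-like cells to 9.15 in Paneth-like cells, and the wild-type library was below the untreated reporter in 10 of 10 states, as given below.

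**Figure D3:**
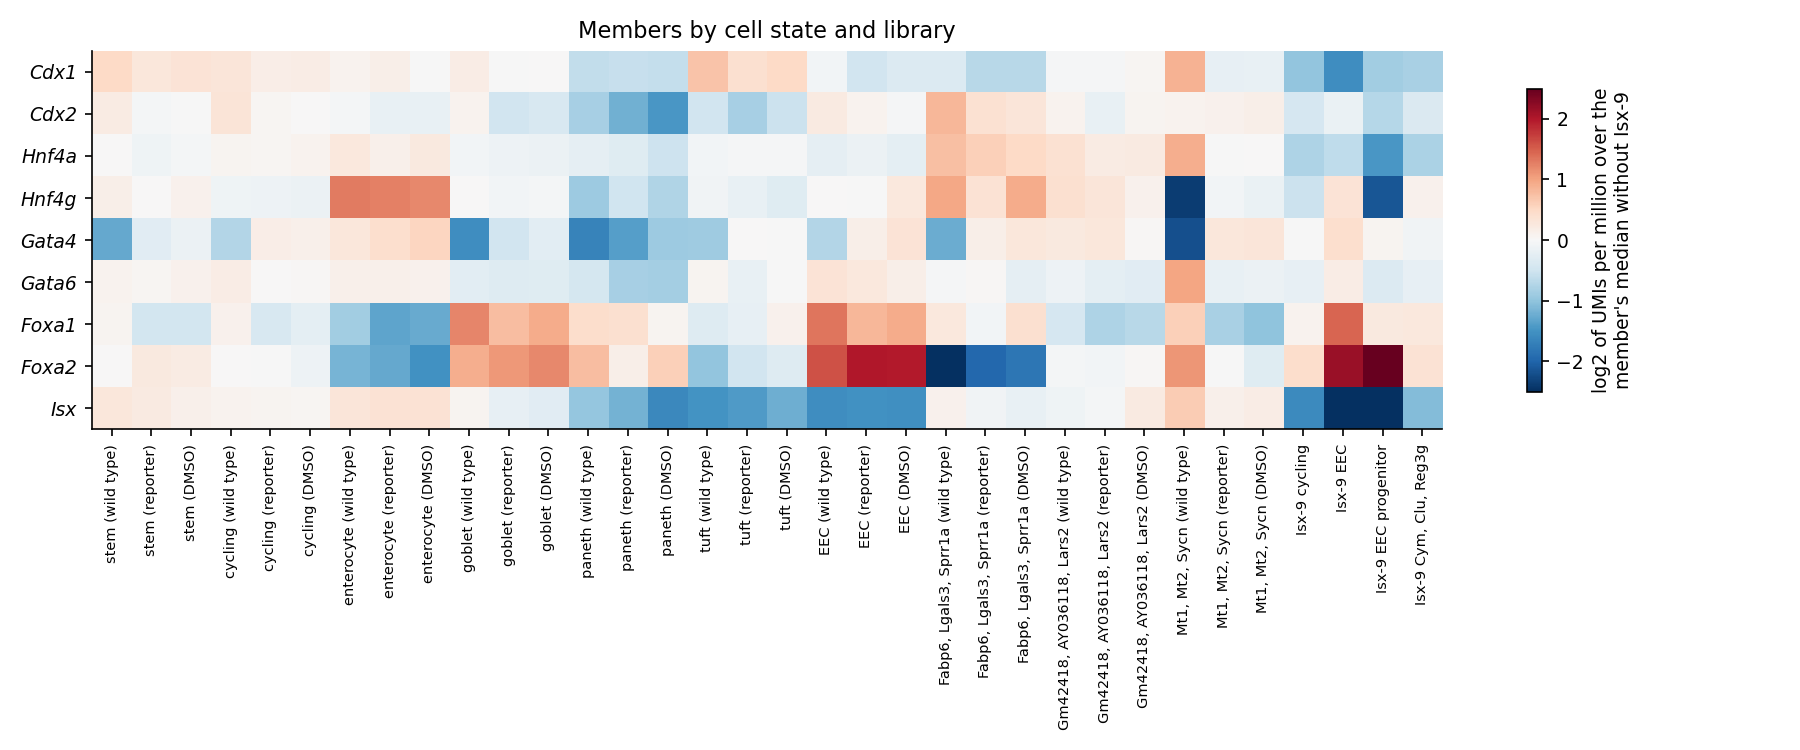
Level of each member (rows) in each cell state and library (columns), as the log2 of UMI CPM over the member's median over states without Isx-9; red is higher, blue is lower, EEC means enteroendocrine-like, and unnamed clusters carry their 3 leading genes. Foxa2 and Foxa1 are red in enteroendocrine- and goblet-like columns, where Isx is blue or near 0, and the 4 Isx-9 states at the right are blue for Cdx1, Hnf4a and Isx.

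In the Isx-9 library the cells fell into 4 states that hold almost none of the other libraries' cells, so states are compared by name and not by shared cluster. Isx stood at 39.0 UMI CPM in cells led by Cym, Clu and Reg3g, 27.3 in cycling-like, 12.9 in enteroendocrine-progenitor-like and 11.7 in enteroendocrine-like cells. Foxa2 had its highest value of any state in the progenitor-like cells, 115 (interval 107 to 123), and stood at 84.1 in enteroendocrine-like cells. The progenitor-like cells also had the lowest Hnf4a, 35.5, and 5.92 (4.23 to 8.06) of Hnf4g against 35.7 in enteroendocrine-like cells.

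Within cycling-like cells (clusters 1, 7 and 8 without and 18 with Isx-9), Isx was 3.14-fold lower, Cdx1 2.28-fold lower and Hnf4a 1.84-fold lower, beside 8.91% of genes lower, and Foxa2 was 1.501-fold higher, beside 20.8% higher. Within enteroendocrine-like cells (clusters 6 and 12 without and 19 with Isx-9), Isx was 2.42-fold lower and Cdx1 2.32-fold lower, beside 6.89% of genes. Hnf4a there had a ratio of 0.761, Foxa1 1.46 and Foxa2 1.14, none past 1.5-fold, although 31.5% of genes were higher. Between DMSO stem-like cells and the Isx-9 cells led by Cym, which bear different names, Isx was 2.33-fold, Cdx1 2.23-fold and Hnf4a 1.69-fold lower, beside 8.05% of genes, and Foxa1 was 1.66-fold higher, beside 30.2%. Against the peptide-hormone cluster alone Isx had a ratio of 1.36 (0.896 to 2.14), and against the Tph1-rich cluster 0.254 (0.208 to 0.310). Hnf4a had a ratio of 0.640 (0.567 to 0.725) against the Tph1-rich and 0.961 against the peptide-hormone cluster. Foxa1 had a ratio of 1.26 against the Tph1-rich and 1.77 (1.45 to 2.19) against the peptide-hormone cluster. For Isx, Hnf4a and Foxa1, the size of the difference and whether it passed 1.5-fold therefore depend on which endocrine cells are the reference. For Isx the side of 1 changed as well, with an interval that held 1 against the peptide-hormone cluster. Cdx1 was at 0.391 against the Tph1-rich and 0.487 against the peptide-hormone cluster, lower both times.

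**Figure D4:**
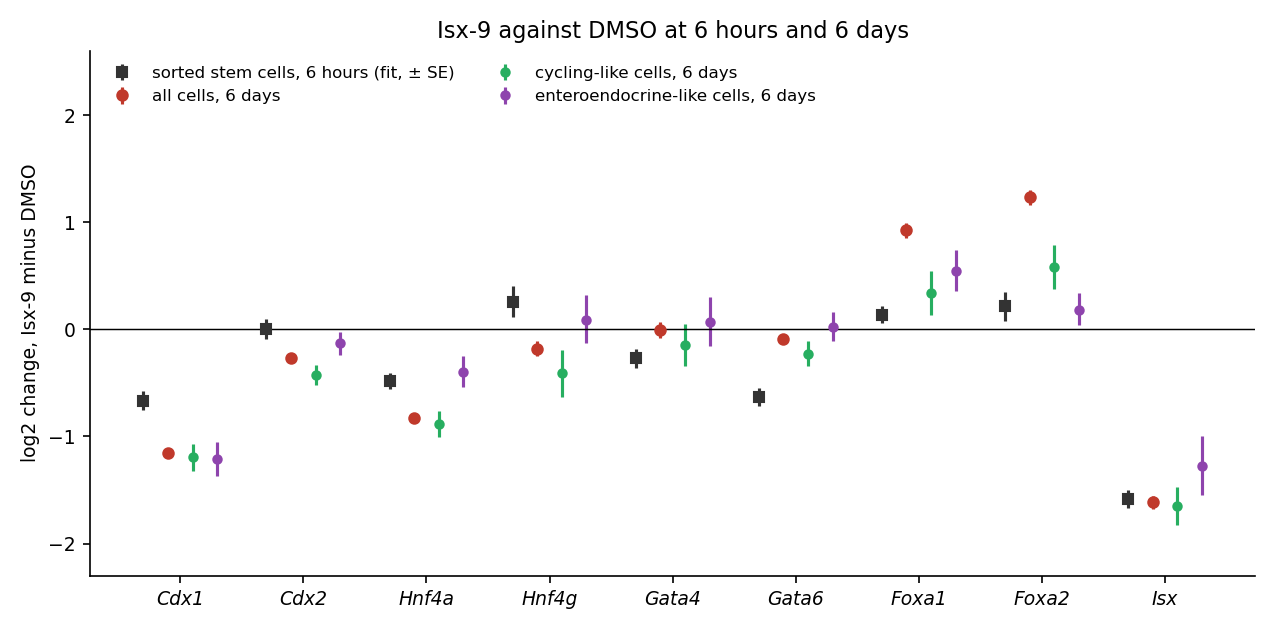
Log2 change with Isx-9 for each member at 6 hours in sorted stem cells (squares, edgeR fit ± SE, 2 against 2 libraries) and at 6 days in all cells, cycling-like cells and enteroendocrine-like cells (circles, 95% counting intervals, 1 library each). Isx and Cdx1 lie below 0 in all 4 settings, and Foxa2 at 6 days is at 1.23 in all cells and nearer 0 within the states.

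Between the untreated reporter and the wild type, Gata4 was the one member counted higher and Foxa1 the one counted lower. Gata4 stood at 13.3 UMI CPM in the wild type and 25.6 in the reporter, a 1.92-fold difference (interval 1.81 to 2.03), and 3.06% of genes were higher. The ratio was above 1 in 10 of 10 states, with a median of 1.88 and a range of 1.03 to 6.04, the last from a state with 64 wild-type cells. In stem-like cells it was at 9.76 in the wild type and 19.97 in the reporter, in enteroendocrine-like cells at 14.6 and 27.4, and in enterocyte-like cells at 30.02 and 32.9. The stem-like and cycling-like states pool clusters that the 2 libraries fill unequally. Stem-like cluster 0 held 1694 wild-type and 438 reporter cells, and stem-like cluster 4 held 672 and 1703. Gata4 stood at 4.54 and 10.6 in cluster 0, and at 21.3 and 22.2 in cluster 4. Of the cycling-like clusters, cluster 7 had 20.5 and 25.8 and cluster 8 had 32.4 and 32.2. Cluster 1 held 49 reporter cells, too few to enter. Foxa1 stood at 28.7 and 18.9, 1.52-fold lower (5.45% of genes lower), and fell short of the fold with TMM factors (ratio 0.668) and with clusters weighted by wild-type cell numbers (0.817), and was lower without clusters 0 and 1 (0.660, interval 0.623 to 0.698). Cdx2 stood at 176 in the wild type and 141 in the reporter, a ratio of 0.801, and Isx at 87.5 and 86.0.

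The Gata4 level differed among the clusters of the wild-type library. With clusters weighted by wild-type cell numbers the Gata4 ratio of reporter to wild type was 1.57, still past the fold. The wild-type library's stem-like cluster 0 and cycling-like cluster 1 had 4.54 and 2.63 UMI CPM of Gata4, 7.81 and 6.95 of Onecut2, and 61.1 and 77.0 of Hoxb9, a posterior Hox gene, with Xist at 506 and 906. The wild-type cells of stem-like cluster 4 and cycling-like cluster 7 had 21.3 and 20.5 of Gata4, 90.5 and 76.9 of Onecut2, 5.68 and 10.4 of Hoxb9, and Xist at 173 and 172. Leaving clusters 0 and 1 out of both libraries gave Gata4 17.8 in the wild type and 26.3 in the reporter, a ratio of 1.48 (1.39 to 1.57), short of the fold. Among cells with a Y-linked UMI and no Xist UMI, it was at 17.1 and 25.0, a ratio of 1.47 (1.36 to 1.58). In those cells Foxa1 had a ratio of 0.749. Within the wild-type library, Gata4 stood at 7.51 in cells with Xist and no Y-linked UMI, and at 17.1 in cells with Y-linked UMIs and no Xist. Onecut2 stood at 33.8 and 75.8 in these cells, and Hoxb9 at 80.1 and 23.4. The cause of this difference was not tested. Between the reporter and the wild type, line, sex, knock-in, gut segment of origin and library cannot be told apart.

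Regional genes moved with Gata4. Of 9 distal genes 8 were lower in the reporter and 1 was higher, with a summed level of 267 in the wild type and 59.9 in the reporter. Fabp6 went from 117 to 4.15 UMI CPM, Slc10a2, the ileal bile acid transporter, from 16.5 to 2.33, Slc51b from 11.4 to 2.59 and Clec2h from 52.5 to 16.7. Of 10 measured proximal genes 4 were higher and 1 was lower. These held Rbp2, a retinol-binding protein (124 to 265), Onecut2, a duodenal factor (59.6 to 119), and Apoa4 (31.0 to 61.1), with Slc40a1 lower (6.42 to 2.99). Of 12 genes listed as HNF4 targets 4 were higher and 0 lower, while Hnf4a itself had a ratio of 0.928. Of 21 neighbouring factors 3 were higher and 4 lower, among the latter Maf (9.92 to 4.81) and Klf4 (68.2 to 33.8).

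**Figure D5:**
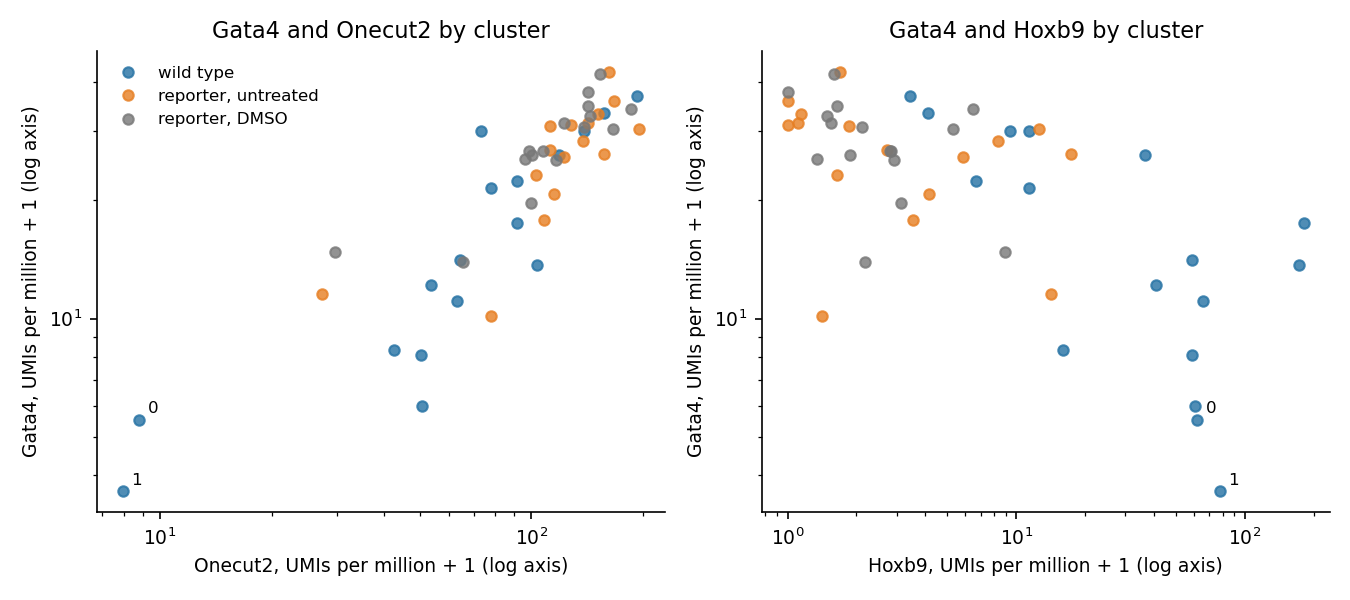
Gata4 against Onecut2 (left) and Hoxb9 (right) in UMI CPM + 1 (log axes), 1 point per cluster and library with at least 50 cells; blue is wild type, orange the untreated reporter and grey the reporter with DMSO, and the wild-type points of clusters 0 and 1 are numbered. Those 2 points have the lowest Gata4, 4.54 and 2.63 UMI CPM, and the lowest Onecut2.

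Over the 53 sums of a cluster in a library, which share depth and library, the gene most like Gata4 was Onecut2 (Pearson r of log2 levels 0.874), then St3gal6 (0.788) and Bin1 (0.762). With the Isx-9 library left out (49 sums) the same 3 genes led, Onecut2 with 0.880. For the other members the leading gene is given over all sums. Gata6 was most like Vdr (0.799), Isx most like Pycard (0.930), Foxa2 most like Maged1 (0.922), Foxa1 most like Glul (0.831), Hnf4a most like Nadk (0.895), Hnf4g most like Il17rc (0.851), Cdx1 most like Eif2b1 (0.795) and Cdx2 most like Gdi2 (0.788). Without the Isx-9 library Vdr and Maged1 still led for Gata6 and Foxa2. The leading gene changed for the other 6, to Sh2d4a for Isx, Tceal9 for Foxa1, Mpzl3 for Hnf4a, Ankrd9 for Hnf4g, Sdhaf1 for Cdx1 and Cotl1 for Cdx2. These are descriptions over sums that are not independent. Among the members, Foxa1 and Foxa2 had r = 0.723 and Hnf4a and Isx 0.728, while Cdx1 and Cdx2 had 0.252 and Gata4 and Gata6 -0.027.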

How the data were processed

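The authors deposited raw bulk counts per gene, UMI counts per gene and cell, and a table of bulk comparisons with signal (mean normalized counts), log2 fold changes, a Wald score and p-values. Per the submitters' processing notes the authors worked on GRCm38 and used Seurat 3.1.5, Cell Ranger 3.1.0, DESeq2 1.24.0, HTSeq 0.12.4, HISAT2 and Trim Galore 0.6.4. Which tool made which file, and whether counting used strand, is not given in the sources used here. ATAC-seq samples were not analysed here.

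Bulk counts were tested with edgeR 4.0.16 (filterByExpr, TMM, quasi-likelihood, Benjamini-Hochberg over 17418 genes, threshold 0.05), with DESeq2 1.42.0 as an alternative. In the authors' deposited table the same 5 members had adjusted p under 0.05, Gata4 with 0.0304.

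Cells needed 500 genes, 1000 UMIs and no more than 20% of UMIs from mitochondrial genes. Scrublet marked 0, 0, 1 and 820 cells as doublets (wild type, reporter, DMSO, Isx-9), so it did not work in the first 3 libraries; marked cells were removed. Cells were clustered with scanpy 1.11.5 (1997 variable genes, 30 components, Leiden resolution 1) without the members. Clusters were named from markers. A cluster with no marker among its 10 leading genes needed more than a share of 0.5 of a list raised to be named, a limit set after seeing the data. UMIs were summed per library and state; genes with at least 100 UMIs in a comparison were counted, and intervals are 95% exact. Scripts were tested on simulated data.

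Named genes were all 9 members, the Isx-repressed genes, and of each list up to 4 called genes with the largest change and at least 5 CPM in the higher group; likeness names the highest correlations, up to 3. A gene that the rule names is not reported here. The alternatives without clusters 0 and 1 and with Y-linked cells were chosen after seeing the data. The members and lists were chosen with earlier results of these data known. Gene names and positions came from RefSeq and Ensembl tables, with 9 of 9 members matched.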

Additional observations from a re-analysis of the deposited data

Results flagged for a closer look

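Genes of the lists were compared between 6 hours in sorted stem cells and 6 days in whole organoids, and 3 moved in opposite directions. Nr1h4, the bile acid receptor, rose at 6 hours by a log2 change of 0.79 (6.41 and 6.23 CPM in DMSO, 11.9 and 9.98 CPM with Isx-9) and had a ratio of 0.666 at 6 days. Alpi, the brush border alkaline phosphatase, rose by 0.83 (14.5 and 29.8 CPM, then 29.9 and 49.0 CPM) and had a ratio of 0.178 at 6 days. Slc10a2, the ileal bile acid transporter, rose by 2.88 from a low level (0 and 0.441 CPM, then 0.648 and 2.64 CPM) and had a ratio of 0.154 at 6 days. The difference between the times was not tested, and the cells, reporter line and assay differ as well as the time. None of the 9 members moved in opposite directions by these rules.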

How the results depend on the processing

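In the bulk libraries 5 members fell and 0 rose under DESeq2's size factors, the DESeq2 Wald test and the fit with the replicate number as a block (5 and 0). Same-numbered libraries correlated at 0.0126 in their deviations. With 2 libraries a group this is 1 value, and it cannot show whether they share a batch, which the labels do not give. With library size alone 2 rose and 4 fell. Leaving out 1 library gave 0 to 1 higher and 4 to 5 lower. Cdx2, near 0, changed sign without the low-count filter (-0.0040) and with fewer libraries (-0.053 when DMSO replicate 1 was left out, -0.085 when Isx-9 replicate 2 was), and leaving out 1 library gave -0.085 to 0.12. Over all genes the count of lower calls went from 3488 to 2095 with library size alone and to 2062 without Isx-9 replicate 1. Without 1 library, the lone sample is assumed to vary like the other group.

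For Isx-9 against DMSO at 6 days, 1 member was higher with TMM factors and 0 without the enteroendocrine-like clusters. For the reporter against the wild type, TMM factors and weighting by wild-type cell numbers each gave 0 lower. The 2 alternatives chosen after seeing the data gave 0 higher without clusters 0 and 1, and 0 higher and 0 lower in cells with Y-linked and no Xist UMIs. With Leiden resolution 0.5, 5 members spanned 2-fold over states. All deposited cells, kept doublets and thinning to 3000 UMIs per cell (505 to 721 cells left out) moved no count of members. Weighting clusters by DMSO cell numbers was not run for Isx-9, since its cells share almost no cluster with DMSO. The cause of these differences was not tested. Single libraries limit all 6-day and reporter values, and UMI intervals cover counting error only.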
